A study of Mus musculus with 12 samples.

Results

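Hedgehog and platelet-derived growth factor (PDGF) signalling were described here through 9 genes, Dhh, Ptch1, Gli1, Gli2, Gli3, Hhip, Pdgfa, Pdgfra and Pdgfrb, in mouse gonads at E11.5 (age in embryonic days). The members were every probe set that the platform annotation gives to one of these genes and to no other gene. This rule found 22 of the 34945 single-gene probe sets, and the 9 genes are among the 18193 genes those probe sets represent. Gli1 had 1 probe set, Hhip had 4, and each of the other members had 2 or 3. The 4 groups of 3 arrays were KO XY, WT XY, KO XX and WT XX, where KO is a Cbx2 knockout and WT is wild type. Cbx2 is a Polycomb protein, a subunit of a chromatin complex that keeps genes silent. The knockout embryos were bred by intercrossing heterozygous carriers and all embryos were staged by counting tail somites, and no transgene or Cre driver is named for any group. Gonadal cells were cut by laser from 30 µm frozen sections, guided by GATA4 staining and tissue shape, and each array held RNA pooled from 2 or 3 individuals. The p-values thus rest on how much these pools varied, not on how much single embryos varied.

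In the fetal testis, Dhh is a ligand secreted by Sertoli cells. It binds the receptor Ptch1 on interstitial cells, which releases Smo and lets the Gli transcription factors act. Gli1, Ptch1 and Hhip are themselves switched on by the pathway, so their transcripts are widely used as its readout, while Gli2 acts mainly as an activator and Gli3 mainly as a repressor. PDGF ligands are a parallel signal to the same compartment: Pdgfa is made by supporting cells and signals through the receptor Pdgfra on interstitial progenitors, and Pdgfrb marks mural cells around vessels as well as mesenchyme. Both pathways are required for fetal Leydig cells, the steroid-producing cells that arise in the testis interstitium after the stage sampled here.

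Values are log2 signals, each probe set was compared only with itself, and no level was set against that of another gene. No detection calls accompanied the values, so low signals could not be told from background. Across the 12 arrays the median signal was 5.88 to 5.94. The array titles assign the genotypes, but the source field of every wild-type array carries the knockout XX label, and the Cbx2 probe signal was higher in the arrays labelled KO (9.27 to 9.58) than in those labelled WT (8.46 to 9.04). The sources used here do not give the place of the Cbx2 probes relative to the deleted part, so that signal checks nothing, and KO and WT below mean the arrays so labelled. Xist and Eif2s3y matched the sex label in all 12 arrays. The gonad markers Wt1 (10.83 to 11.24), Gata4, whose protein guided the capture (7.34 to 7.72 in KO, 8.61 to 9.29 in WT) and Nr5a1 (7.68 to 8.33 in KO, 9.87 to 10.33 in WT) were measured in every array. WT XX replicate 1 stood apart: its mean correlation was 0.9877 with its own group and 0.9953 with the WT XY arrays. The Gapdh 3′ minus 5′ probe set difference, a sign of RNA quality, averaged 4.91 ± 0.12 in KO XY gonads against 4.13 ± 0.38 in WT XY gonads, and 4.05 ± 0.22 in KO XX gonads against 4.3 ± 0.45 in WT XX gonads (SD, n = 3 each).

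RefSeq promoter sequences (build GRCm38.p6) were read for 7 of the 9 members, with 8 start sites in all because Pdgfa has 2. No window was read for Gli1, or for Pdgfrb, which was also higher in KO. The member windows were filtered by chromosome, so a missing window does not show that no promoter entry exists. The 250 bases before the start site are shown for 3 of the members that were higher in KO gonads and for 1 that was lower, with CpG dinucleotides in capitals because Cbx2 complexes are known to act at CpG-rich promoters. These are Gli2 (chr1:119053620-119053869, minus strand), Gli3 (chr13:15463473-15463722, plus strand), Pdgfra (chr5:75152001-75152250, plus strand) and Dhh (chr15:98898541-98898790, minus strand).
Gli2: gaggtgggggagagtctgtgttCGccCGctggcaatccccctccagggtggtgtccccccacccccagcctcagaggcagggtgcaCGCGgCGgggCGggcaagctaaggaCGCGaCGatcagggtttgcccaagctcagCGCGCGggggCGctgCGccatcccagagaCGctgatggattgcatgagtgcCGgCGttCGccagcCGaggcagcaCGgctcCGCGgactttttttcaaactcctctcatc
Gli3: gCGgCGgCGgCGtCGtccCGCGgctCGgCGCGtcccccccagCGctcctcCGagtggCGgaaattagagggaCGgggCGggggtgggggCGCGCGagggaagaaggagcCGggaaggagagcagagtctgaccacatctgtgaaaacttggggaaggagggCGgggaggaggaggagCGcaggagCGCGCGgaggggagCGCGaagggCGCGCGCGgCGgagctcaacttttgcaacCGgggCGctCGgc
Pdgfra: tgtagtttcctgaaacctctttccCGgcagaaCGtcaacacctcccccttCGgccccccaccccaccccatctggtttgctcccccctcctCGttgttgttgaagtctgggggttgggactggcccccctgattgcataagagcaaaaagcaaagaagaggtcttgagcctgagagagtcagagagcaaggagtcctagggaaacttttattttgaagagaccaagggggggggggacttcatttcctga
Dhh: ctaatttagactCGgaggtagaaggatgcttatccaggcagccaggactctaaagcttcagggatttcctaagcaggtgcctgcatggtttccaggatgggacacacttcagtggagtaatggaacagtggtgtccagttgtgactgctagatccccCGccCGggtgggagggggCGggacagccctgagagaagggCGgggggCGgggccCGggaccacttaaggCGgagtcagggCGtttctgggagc
Gli3 held 34 CpG dinucleotides and Gli2 held 22, at least as many as 97.0% and 86.7% of 32851 mouse promoter windows. Dhh held 9 and Pdgfra held 4, at percentiles 62.2 and 44.4. Among the 3 higher members shown, Gli2 and Gli3 thus had CpG-rich windows and Pdgfra did not. Any part of CpG content in the changes was not tested. The remaining windows held 41 (Ptch1), 28 (Hhip), and 19 and 28 (the start sites of Pdgfa), against a median of 6 over all promoters. The GLI binding consensus GACCACCCA, read on both strands, was in none of the 8 windows and in 0.225% of all promoters. The GC box GGGCGG, also on both strands, was in every member window except that of Pdgfra, and in 32.7% of all promoters.

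The arrays labelled KO had higher signals of the receptors Pdgfra and Pdgfrb and of the transcription factors Gli2 and Gli3, and lower signals of the ligands Dhh and Pdgfa. The pathway readouts Ptch1, Gli1 and Hhip did not pass the test. Gli1 averaged 5.83 and Hhip 4.88 over all arrays, below the array medians, so their signals could not be told from background. Averaged over both sexes, 6 of the 9 genes passed at an adjusted p under 0.05 (limma, Benjamini-Hochberg over all single-gene probe sets), 4 higher and 2 lower in KO, each gene being read on its brightest probe set. Of all genes read the same way, 22.6% passed, 12.9% higher and 9.72% lower. Dhh is in the count through 1434959_at alone, as its other probe set did not pass. Over probe sets, 7 of 22 were higher and 3 were lower, against 11.2% higher and 9.16% lower of all probe sets. In 6 member probe sets (both of Gli2, a pair of Gli3, 1 of Pdgfra and 1 of Pdgfrb) every KO array lay above every WT array, and in both Pdgfa probe sets every KO array lay below every WT array; over all probe sets 5.07% and 4.32% were apart in these directions. All 6 genes passed under each of the 23 alternative settings tried for the comparison over both sexes. In such bulk samples, fewer cells of a type and less RNA per cell cannot be told apart.

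**Figure D1:**
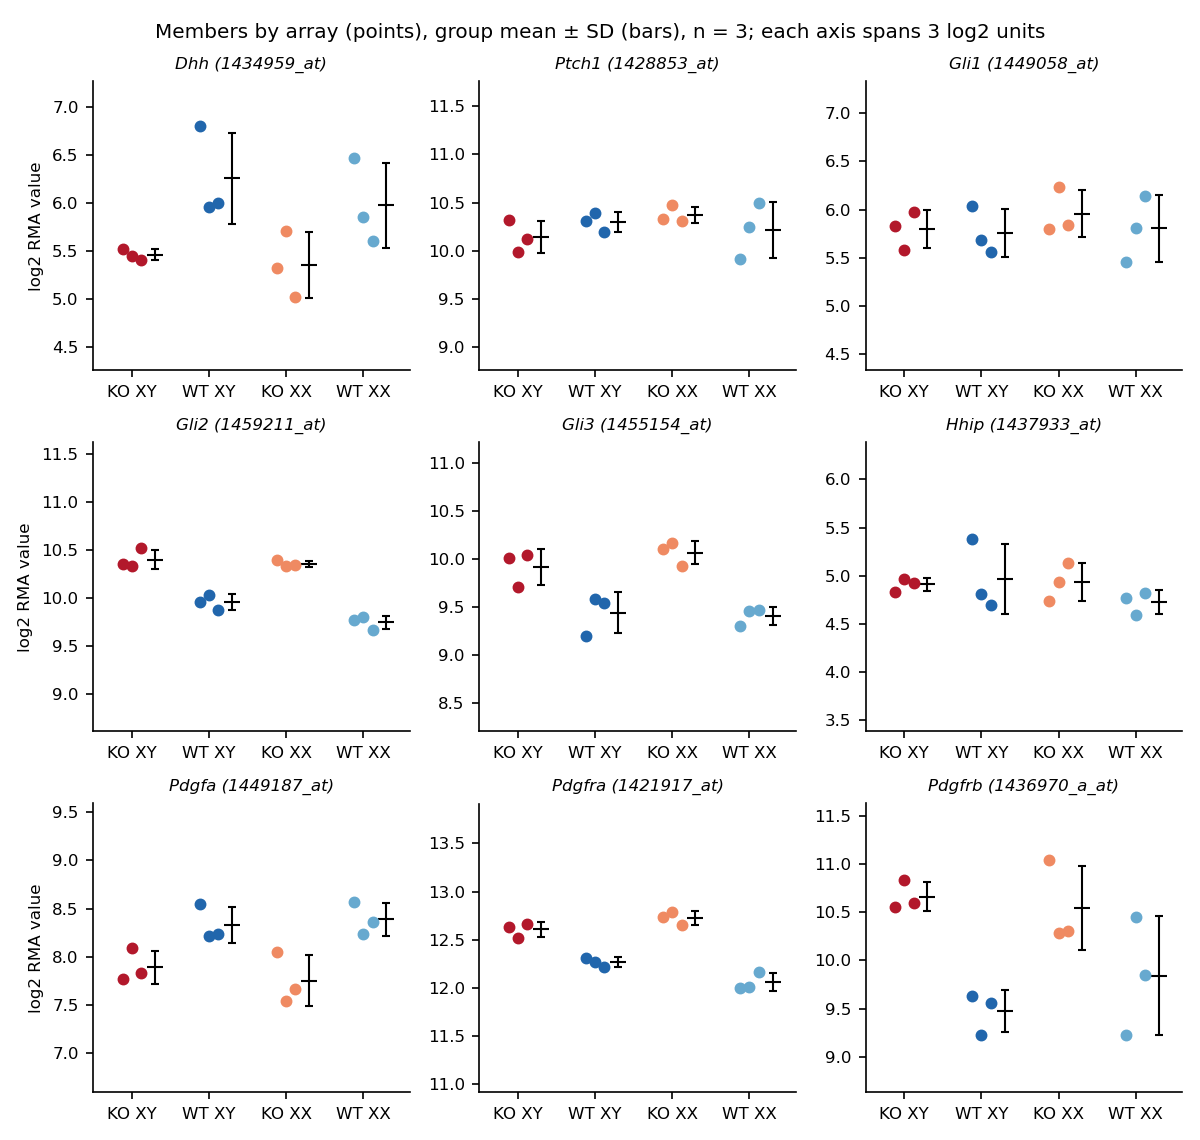
Log2 signal of each member on its brightest probe set, 1 point per array, for KO XY, WT XY, KO XX and WT XX, with the group mean ± SD (n = 3 each); each axis spans 3 log2 units. Gli2, Gli3 and Pdgfra separate the 6 KO arrays from the 6 WT arrays upwards and Pdgfa downwards, while Ptch1, Gli1 and Hhip overlap.

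**Figure D2:**
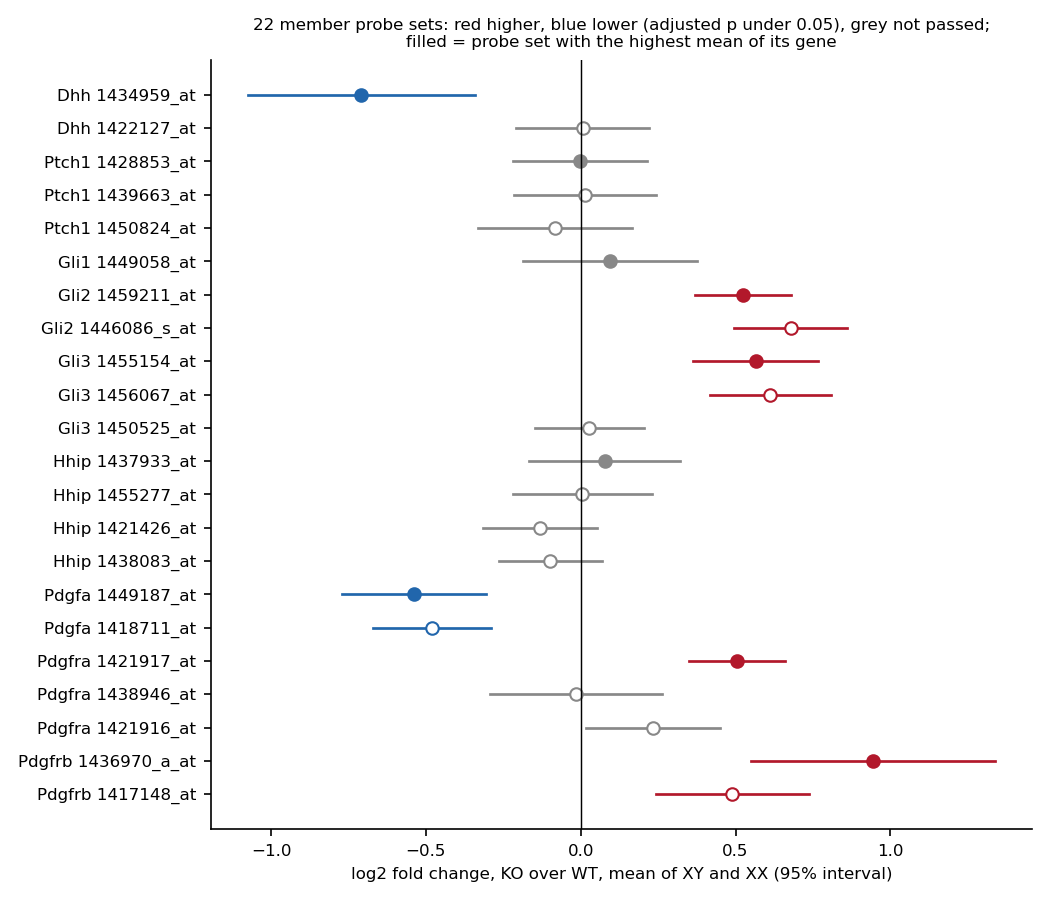
Log2 fold change of KO over WT, averaged over XY and XX, for all 22 member probe sets with 95% intervals; red is higher and blue lower at an adjusted p under 0.05, grey did not pass, and filled points are the brightest probe set of each gene. The changes run between -0.71 (Dhh) and 0.94 (Pdgfrb), and 12 of the 22 probe sets did not pass.

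Dhh, the hedgehog ligand of the developing testis, was lower in KO gonads on 1 of its 2 probe sets. Its brighter probe set (1434959_at) read 5.52, 5.45 and 5.41 in KO XY arrays, against 6.80, 5.96 and 5.997 in WT XY arrays. In XX gonads it read 5.32, 5.71 and 5.03 in KO, against 6.46, 5.85 and 5.61 in WT. The XY groups did not overlap, and in XX the highest KO array lay above the lowest WT array. Over both sexes Dhh fell by 0.71 ± 0.17 (log2, SE; a fold of 0.612, limma adjusted p = 0.00865). Within XY alone the difference was -0.79 ± 0.24 (adjusted p = 0.0502) and within XX alone -0.62 ± 0.24 (adjusted p = 0.124), so Dhh passed in neither sex by itself. In XY it passed in 10 of 24 alternatives, with an adjusted p of 0.0177 without WT XX replicate 1. Leaving out replicate 1 of WT XY gave -0.52 in XY (adjusted p = 0.232), and taking the Gapdh 3′ minus 5′ difference as a covariate gave -0.31 (adjusted p = 0.835). The XX difference was -0.38 without WT XX replicate 1 (adjusted p = 0.357). The dimmer Dhh probe set (1422127_at), with values of 5.47 to 5.93, gave 0.01 ± 0.10 (adjusted p = 0.974), so the probe sets of this gene differ. Over all arrays 1434959_at averaged 5.76 and 1422127_at 5.69. In KO arrays 1434959_at was the lower of them, at 5.46 in XY and 5.35 in XX, against 5.77 and 5.61. It was thus the brighter only through the WT arrays, so the Dhh call is not independent of that choice. The other hedgehog ligands did not pass: Shh gave -0.14 ± 0.11 (adjusted p = 0.444) and Ihh -0.23 ± 0.12 (adjusted p = 0.221).

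Ptch1, the hedgehog receptor, had similar group means. It read 10.31, 9.99 and 10.12 in KO XY, against 10.31, 10.39 and 10.20 in WT XY. The XX arrays read 10.33, 10.47 and 10.31 in KO, against 9.91, 10.25 and 10.50 in WT. KO and WT arrays overlapped in both sexes. The change over both sexes was -0.00 ± 0.10, with a 95% interval of -0.22 to 0.22 (adjusted p = 0.993), and its 2 dimmer probe sets did not pass either (adjusted p 0.686 and 0.952). Gli1, a target and amplifier of the pathway, averaged 5.80 ± 0.20 in KO XY and 5.76 ± 0.25 in WT XY, and 5.96 ± 0.24 in KO XX and 5.80 ± 0.34 in WT XX (SD, n = 3 each). Its change was 0.10 ± 0.13, with an interval of -0.19 to 0.38 (adjusted p = 0.681). Hhip, a membrane protein that binds and sequesters hedgehog ligands, had low values of 4.59 to 5.38 on its brightest probe set and changed by 0.08 ± 0.11, with an interval of -0.17 to 0.32 (adjusted p = 0.705). The remaining Hhip probe sets, at 2.92 to 4.6, had adjusted p-values of 0.331 to 0.982. Differences within those intervals could not be detected with 3 arrays a group.

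Gli2, the main activator among the Gli factors, was higher in KO on both of its probe sets and in both sexes. The brighter one (1459211_at) read 10.35, 10.33 and 10.52 in KO XY, against 9.96, 10.04 and 9.87 in WT XY. The XX values were 10.40, 10.33 and 10.34 in KO, against 9.78, 9.80 and 9.67 in WT. Every KO array exceeded every WT array, and the spread within groups was small. Gli2 rose by 0.44 ± 0.10 in XY gonads (adjusted p = 0.0115), by 0.61 ± 0.10 in XX gonads (adjusted p = 0.00132) and by 0.53 ± 0.07 over both (a fold of 1.44, adjusted p = 0.000111). The dimmer probe set (1446086_s_at) gave 0.68 ± 0.09 over both sexes (a fold of 1.60, adjusted p = 4.87e-05).

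Gli3, whose processed form represses hedgehog targets, was higher in KO on its 2 brighter probe sets. On 1455154_at it read 10.004, 9.71 and 10.04 in KO XY, against 9.20, 9.59 and 9.54 in WT XY. In XX it read 10.10, 10.16 and 9.93 in KO, against 9.30, 9.46 and 9.47 in WT. The 6 KO arrays lay above the 6 WT arrays, with the XY groups closest to each other. The gene rose by 0.48 ± 0.13 in XY gonads (adjusted p = 0.0334), by 0.65 ± 0.13 in XX gonads (adjusted p = 0.00538) and by 0.57 ± 0.10 over both sexes (a fold of 1.48, adjusted p = 0.000591). Probe set 1456067_at gave 0.61 ± 0.09 over both (adjusted p = 0.000229), while the dim 1450525_at, at 4.51 to 4.97, did not pass (0.03, adjusted p = 0.867).

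Pdgfa, the PDGF ligand of supporting cells, was lower in KO on both of its probe sets. The brighter one (1449187_at) read 7.77, 8.09 and 7.83 in KO XY, against 8.55, 8.22 and 8.24 in WT XY. The XX arrays read 8.05, 7.54 and 7.67 in KO, against 8.57, 8.23 and 8.36 in WT. The 6 KO arrays all lay below the 6 WT arrays, with the highest KO value close to the lowest WT value. Pdgfa fell by 0.54 ± 0.11 over both sexes (a fold of 0.689, adjusted p = 0.00251) and by 0.64 ± 0.15 in XX gonads (adjusted p = 0.0150). The XX value did not pass without KO XX replicate 2 (adjusted p = 0.0650), without KO XX replicate 3 (adjusted p = 0.0581) or without WT XX replicate 1 (adjusted p = 0.0517). Nor did it pass with only the XX groups fitted (adjusted p = 0.052). In XY the difference was -0.44 ± 0.15 (adjusted p = 0.0866) on this probe set, while on the dimmer one (1418711_at) Pdgfa fell by 0.45 (adjusted p = 0.0341). That XY call was lost when any of the 6 XY arrays was left out (adjusted p 0.0684 to 0.132) and with the Gapdh covariate (adjusted p = 0.211). In XX the dimmer probe set fell by 0.51 (adjusted p = 0.0167). Its XX call was lost with only the XX groups fitted (adjusted p = 0.0847). It was also lost without KO XX replicate 2, KO XX replicate 3 or WT XX replicate 3 (adjusted p 0.055 to 0.0686). The second ligand of the family, Pdgfb, which endothelial cells release to recruit mural cells, fell by 0.78 ± 0.12 over both sexes (adjusted p = 0.000236). Pdgfd, a ligand of Pdgfrb, rose by 1.38 ± 0.11 (adjusted p = 6.02e-07), and Pdgfc, a ligand of Pdgfra, changed by -0.04 ± 0.09 (adjusted p = 0.823).

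Pdgfra, the receptor for Pdgfa on interstitial progenitors, was higher in KO on 1 of its 3 probe sets over both sexes. Probe set 1421917_at read 12.64, 12.52 and 12.66 in KO XY, against 12.32, 12.27 and 12.22 in WT XY. Among XX arrays the values were 12.74, 12.79 and 12.65 in KO, against 11.999, 12.01 and 12.17 in WT. Each KO group lay above its WT group without overlap. Pdgfra rose by 0.34 ± 0.10 in XY gonads (adjusted p = 0.0457), by 0.67 ± 0.10 in XX gonads (adjusted p = 0.000593) and by 0.51 ± 0.07 over both (a fold of 1.42, adjusted p = 0.000149). The XY call was lost in 14 of 24 alternatives, among them leaving out any XY array, KO XX replicate 1 or 3, or WT XX replicate 2. A second probe set (1438946_at) gave -0.02 ± 0.13 over both sexes (adjusted p = 0.953). The third, 1421916_at, read 5.73, 5.98 and 5.997 in KO XY and 5.68, 5.93 and 6.24 in WT XY. In XX it read 6.59, 6.46 and 6.41 in KO, against 5.85, 5.92 and 6.14 in WT, so that the KO XX arrays alone were high. It rose by 0.52 ± 0.14 in XX (adjusted p = 0.0311) and changed by -0.05 in XY (adjusted p = 0.892). The XX call was lost without any of the 3 KO XX arrays (adjusted p 0.0558 to 0.104), without WT XX replicate 1 (adjusted p = 0.0873) or 2 (adjusted p = 0.0808), with array weights (adjusted p = 0.0919) and with only the XX groups fitted (adjusted p = 0.0503).

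Pdgfrb, the receptor of mural cells and their precursors, had the largest change of the 9 genes over both sexes. Its brighter probe set (1436970_a_at) read 10.56, 10.83 and 10.59 in KO XY, against 9.63, 9.23 and 9.56 in WT XY. In XX it read 11.04, 10.29 and 10.30 in KO, against 9.23, 10.45 and 9.85 in WT. The XY groups were well apart, whereas in XX the highest WT array lay above 2 of the 3 KO arrays. Pdgfrb rose by 1.19 ± 0.26 in XY (a fold of 2.28, adjusted p = 0.00803) and by 0.94 ± 0.18 over both sexes (a fold of 1.92, adjusted p = 0.00192). In XX the difference was 0.70 ± 0.26 (adjusted p = 0.107). It was 1.0 without WT XX replicate 2 (adjusted p = 0.0158) and 0.39 without WT XX replicate 1 (adjusted p = 0.332), the array that stood apart. The dimmer probe set (1417148_at) gave 0.49 ± 0.12 over both sexes (adjusted p = 0.00741). It passed in neither sex by itself, with 0.45 ± 0.16 in XY (adjusted p = 0.101) and 0.53 ± 0.16 in XX (adjusted p = 0.0527). The XY call of Pdgfrb thus rests on the brighter probe set alone.

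Within XY gonads alone, 4 of the 9 genes passed, all higher in KO (Gli2, Gli3, Pdgfra and Pdgfrb), against 12.4% of all genes in either direction, 6.1% higher and 6.33% lower. Within XX alone 3 were higher (Gli2, Gli3 and Pdgfra) and 1 was lower (Pdgfa), against 12.6% of all genes, 7.67% higher and 4.96% lower. The XY count depended on single arrays and on the fit. With array weights, or with only the XY groups fitted, it was 6, adding Dhh and Pdgfa as lower. In the other direction, leaving out replicate 3 of KO XY or of WT XY left 1 (Pdgfrb), leaving out replicate 1 of KO XY or of WT XY left 2 (Gli2 and Pdgfrb), and taking the Gapdh 3′ minus 5′ difference as a covariate left 0. That difference was higher in every KO XY array than in any WT XY array. With that covariate the XY calls over all single-gene probe sets fell to 397 higher and 650 lower, against 1791 higher and 2013 lower without it, and the XY changes were 0.93 for Pdgfrb (adjusted p = 0.304), 0.41 for Gli2 (adjusted p = 0.263), 0.22 for Gli3 (adjusted p = 0.764) and 0.23 for Pdgfra (adjusted p = 0.651). The part of RNA quality in the XY values cannot be told apart from genotype.

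**Figure D3:**
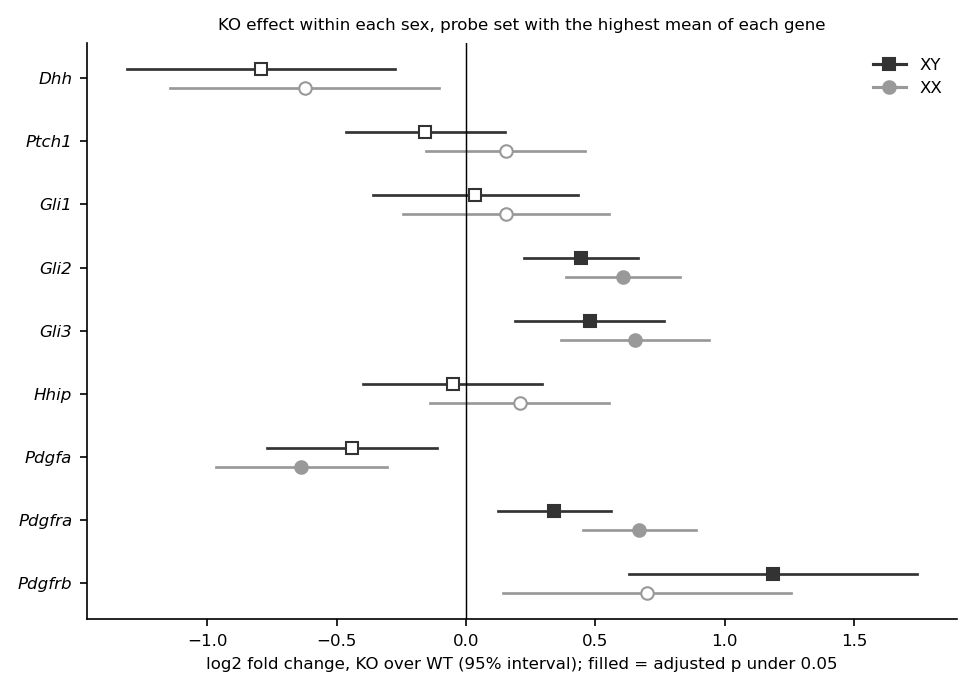
Log2 fold change of KO over WT with its 95% interval on the brightest probe set of each member, squares for XY and circles for XX; filled symbols passed at an adjusted p under 0.05. The XY and XX intervals of each gene overlap, and filled symbols in both sexes appear for Gli2, Gli3 and Pdgfra.

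No member passed the test between the sexes. Between WT XY and WT XX gonads, 0 of 22 probe sets passed in limma, none had an unadjusted p under 0.05 and the smallest adjusted p was 0.543; of all probe sets 0.0572% passed. WT XY arrays lay above WT XX arrays without overlap for 2 of the 9 genes on their brightest probe sets, Gli2 and Pdgfra, against 10% of all genes. The WT comparison depended on WT XX replicate 1: over all single-gene probe sets 16 were higher and 4 lower in XY with it, against 1048 higher and 1382 lower without it, and 0 of the 9 members passed either way. Dhh, for example, averaged 6.25 ± 0.48 in WT XY and 5.97 ± 0.44 in WT XX (SD, n = 3 each). Between KO XY and KO XX gonads, 0 of 22 passed, 1 had an unadjusted p under 0.05 and 0.0286% of all probe sets passed. That 1 was the Pdgfra probe set 1421916_at, lower in KO XY than in KO XX by -0.59 ± 0.14 (adjusted p = 0.259). The difference of the KO effect between the sexes, XY minus XX, passed in 0 of 22, against 0.00858% of all probe sets. There 3 had an unadjusted p under 0.05, 1450525_at of Gli3 and 1421917_at and 1421916_at of Pdgfra, and the smallest adjusted p was 0.749. A call in one sex and not in the other was therefore not shown to differ between them.

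The other hedgehog pathway genes included 5 that were higher in KO and 0 that were lower among 19 measured, over both sexes, with a median change of 0.14 against -0.01 over all genes. Of all genes, 12.9% were higher and 9.72% lower, and no list was tested against these shares. Gas1, a co-receptor that promotes ligand binding, averaged 13.51 ± 0.05 in KO XY and 12.77 ± 0.15 in WT XY, and 13.52 ± 0.06 in KO XX and 12.71 ± 0.22 in WT XX (SD, n = 3 each), and rose by 0.77 ± 0.09 (adjusted p = 1.72e-05). Lrp2, an endocytic receptor for hedgehog ligands, rose by 0.81 ± 0.15 (adjusted p = 0.00129). The rise of Lrp2 was at low signals, its group means being 4.21 to 5.35. Taken by sex, Lrp2 did not pass for XY gonads (0.49, adjusted p = 0.174) but passed for XX gonads (1.13, adjusted p = 0.00284). Gpr161, a ciliary receptor that restrains the pathway, rose by 0.53, and the kinase Stk36 by 0.56. Smo, the signal transducer released by Ptch1, did not pass (0.13 ± 0.12, adjusted p = 0.508), nor did the co-receptors Cdon (0.02 ± 0.09, adjusted p = 0.905) and Boc (-0.11 ± 0.14, adjusted p = 0.631).

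Among 12 genes known as hedgehog targets in mesenchyme, 4 were higher and 1 was lower, with a median of 0.14. The shares over all genes were 12.9% higher and 9.72% lower. Bmp4, a secreted signal, averaged 9.11 ± 0.19 in KO XY and 7.75 ± 0.12 in WT XY, and 8.94 ± 0.24 in KO XX and 7.62 ± 0.24 in WT XX (SD, n = 3 each), a rise of 1.34 ± 0.11 (adjusted p = 7.29e-07). The cell cycle kinase Cdk6 rose by 0.57, the forkhead factor Foxd2 by 0.65 and cyclin Ccnd2 by 0.25, whereas the cyclin Ccnd1 fell by 0.37. Foxf1, a mesenchymal hedgehog target, changed by 0.01 (adjusted p = 0.974).

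Of 18 other PDGF pathway genes, 5 were higher and 2 were lower, with a median of 0.17, against 12.9% and 9.72% of all genes. Besides the ligands above, Plat, the protease that activates Pdgfc, rose by 1.18 ± 0.12 (adjusted p = 7e-06). The receptor-binding protein Lrp1 rose by 0.62, the PI3-kinase subunit Pik3r1 by 0.94 and the adaptor Shc1 by 0.27, while the adaptor Grb2 fell by 0.41. Pdgfrl, a receptor-like protein, gave 0.30 (adjusted p = 0.158).

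The list of gonadal interstitial and fetal Leydig genes did not move as one. Of 16 measured, 7 rose and 3 fell, with a median of 0.53, against 12.9% and 9.72% of all genes. The genes that rose are known from interstitial progenitors and mesenchyme: the Notch ligand Jag1 (1.45 ± 0.15, adjusted p = 7e-06), the nuclear receptors Nr2f2 (1.303 ± 0.14, adjusted p = 1.38e-05) and Nr2f1, Wnt5a, Tcf21, Maf and Dlk1. The genes that fell encode steroid-making enzymes, Cyp11a1, Hsd3b1 and Cyp17a1. The falls of Hsd3b1 (-0.50) and Cyp17a1 (-0.37) were at low signals, with group means of 4.71 to 5.34 and 5.49 to 5.94. Star, of the same list, did not pass (-0.12 ± 0.07, adjusted p = 0.316). Cyp11a1, the cholesterol side-chain cleavage enzyme, averaged 4.96 ± 0.28 in KO XY and 7.26 ± 0.21 in WT XY, and 4.70 ± 0.21 in KO XX and 7.33 ± 0.57 in WT XX (SD, n = 3 each), a change of -2.47 ± 0.17 (adjusted p = 1e-07). In XY alone the counts higher and lower were 2 and 0 for the hedgehog genes, 3 and 0 for the targets, 4 and 2 for the PDGF genes and 5 and 2 for the interstitial list. In XX alone they were 4 and 0, 2 and 0, 4 and 1, and 4 and 3. The shares higher and lower over all genes were 6.1% and 6.33% in XY, and 7.67% and 4.96% in XX.

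**Figure D4:**
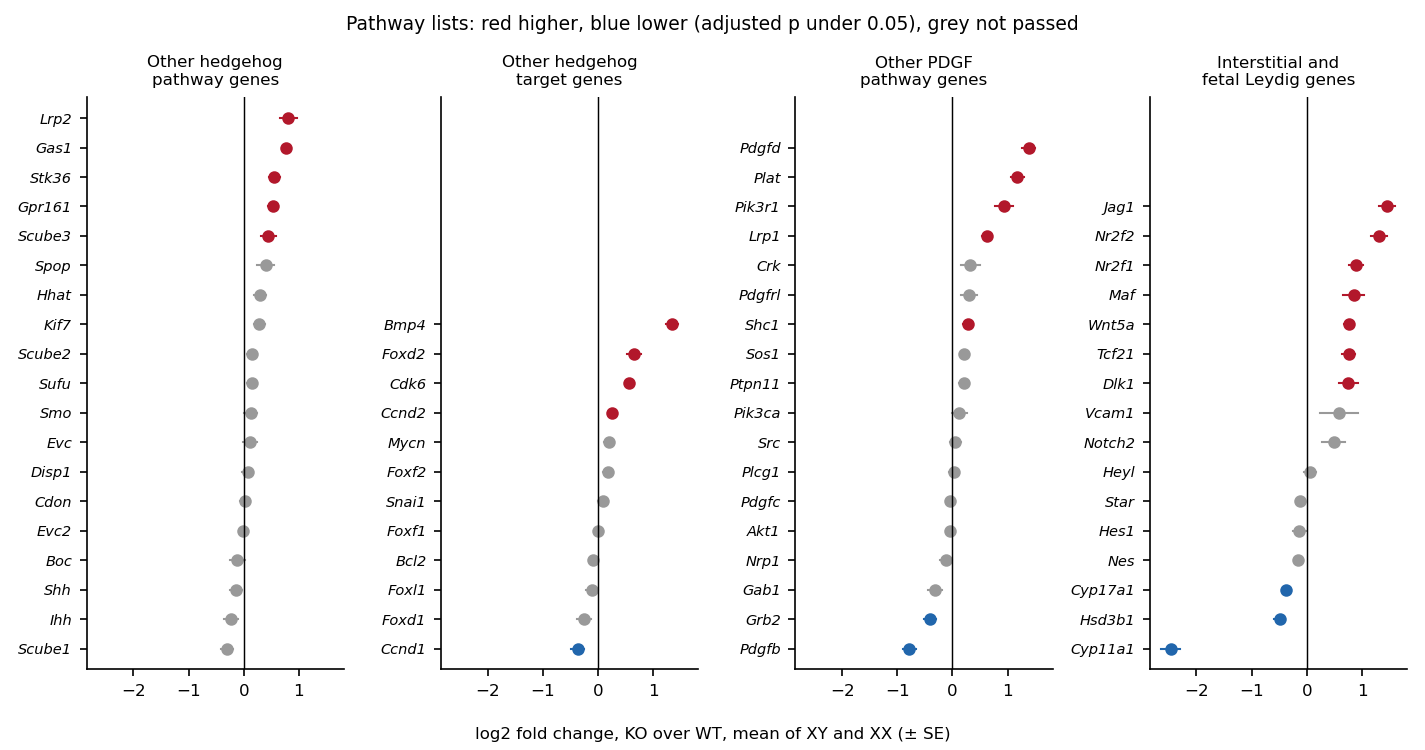
Log2 fold change of KO over WT, averaged over XY and XX, ± SE, for each measured gene of 4 lists; red is higher and blue lower at an adjusted p under 0.05, grey did not pass. In the interstitial list 7 genes lie to the right and 3 steroid enzymes to the left, with Cyp11a1 at -2.47, and 6 of the 16 did not pass, among them Nes at -0.16 and Hes1 at -0.14.

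Marker genes of other cell types moved in the same arrays. The counts below are over both sexes, where 12.9% of all genes were higher in KO and 9.72% lower. Mural and smooth muscle markers were higher in KO for 6 of 10 genes (Kcnj8, Tagln, Notch3, Cspg4, Rgs5 and Abcc9) and lower for 0. The mean level of that list was 7.56 to 7.68 in KO XY and 6.98 to 7.17 in WT XY, and 7.44 to 7.6 in KO XX and 7.04 to 7.19 in WT XX. This was the direction of Pdgfrb, but it was not particular to the mural list, as the levels given below show. Markers of supporting and somatic gonad cells were lower in KO for 6 of 8 genes and higher for 0, while Wt1 and Amh did not pass. Among the lower genes, Sox9 fell in XY (-2.77, limma adjusted p = 4e-07) and did not pass in XX (0.03, adjusted p = 0.941). The mean level of the supporting and somatic list was 7.66 to 7.75 in KO XY and 9.09 to 9.13 in WT XY, and 7.62 to 7.80 in KO XX and 8.65 to 8.88 in WT XX. Endothelial markers were lower for 9 of 11 genes, at 6.76 to 7.33 in KO XY and 7.86 to 8.02 in WT XY, and 6.92 to 7.55 in KO XX and 7.63 to 7.86 in WT XX, the direction of Pdgfb. The counts higher and lower were 5 and 1 of 8 for coelomic epithelium, 1 and 1 of 8 for mesonephric duct and tubules, 4 and 0 of 9 for macrophages, 3 and 0 of 6 for germ cells, 0 and 0 of 5 for erythroid cells and 3 and 0 of 6 for neural cells. Coelomic epithelium levels were 8.99 to 9.04 in KO XY and 8.28 to 8.4 in WT XY. In XX they were 8.96 to 9.24 in KO and 8.13 to 8.22 in WT. Neural levels were 6.95 to 7.02 in KO XY and 6 to 6.08 in WT XY. In XX they were 6.8 to 7.25 in KO and 5.97 to 6.44 in WT. Macrophage levels were 7.24 to 7.39 in KO XY and 6.72 to 6.99 in WT XY. In XX they were 7.1 to 7.63 in KO and 6.6 to 6.99 in WT. The lowest signal of any probe set was 2.374, so a signal above 0 does not show that a marker was detected. The mean was under 5 for 3 of 8 mesonephric and 2 of 10 mural markers. It was also under 5 for 1 marker each of coelomic epithelium, erythroid and neural cells. The part of these cell types in the members' changes was not tested.

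**Figure D5:**
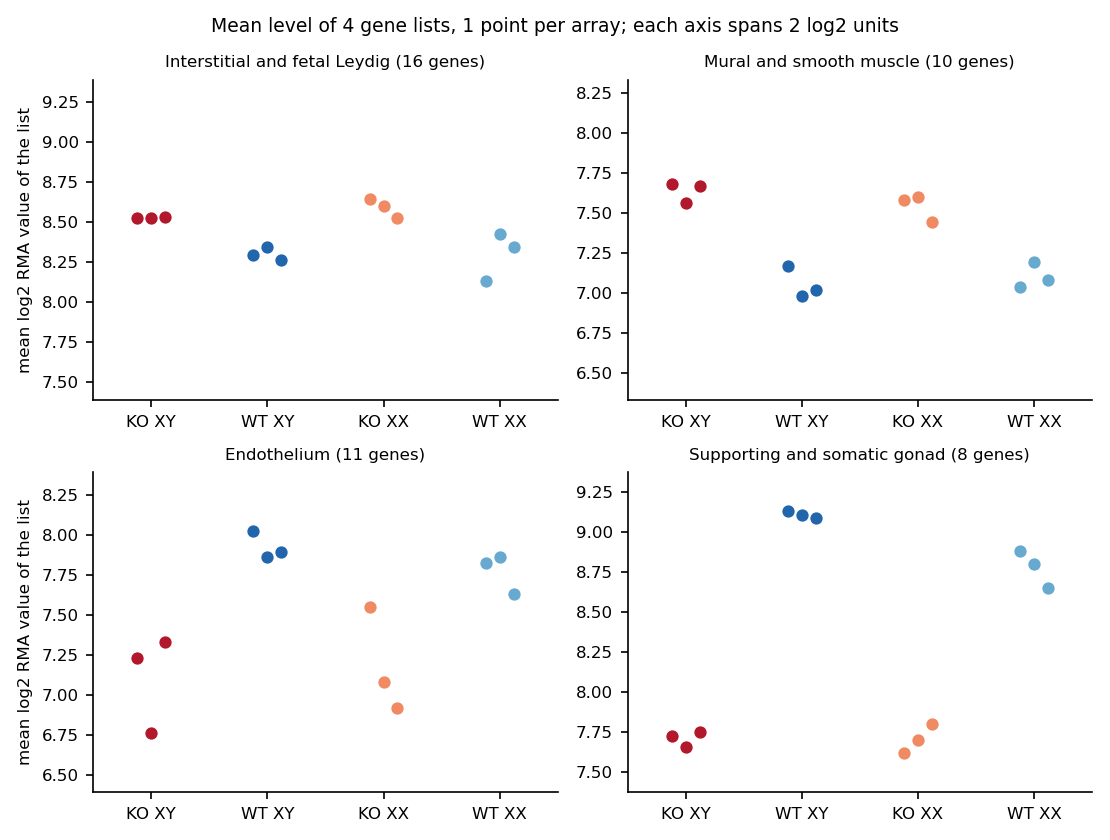
Mean log2 signal of 4 gene lists, 1 point per array, for KO XY, WT XY, KO XX and WT XX; each axis spans 2 log2 units. The mural list sits at 7.44 to 7.68 in the KO arrays and at 6.98 to 7.19 in the WT arrays, and the supporting and somatic list at 7.62 to 7.80 in KO and 8.65 to 9.13 in WT.

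Pdgfrb was the member whose group means spanned 1 or more log2 units, and it was set beside the other genes by the root mean square difference of their profiles over the 12 arrays. Among 11120 genes the smallest differences were those of Hey2 (0.165), Hspa12b (0.175) and Neurl1b (0.202). Hey2, a transcription factor downstream of Notch, rose by 0.94 ± 0.18 over both sexes (adjusted p = 0.00136), Hspa12b, a heat shock protein family member, by 0.78 ± 0.17 (adjusted p = 0.00337) and Neurl1b, an E3 ubiquitin ligase, by 0.79 ± 0.13 (adjusted p = 0.000503). These genes were picked for profiles like that of Pdgfrb in the same arrays. Their rise follows from that choice, and their p-values lend it no separate support.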

How the data were processed

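RNA of laser-captured gonads was measured on 12 Affymetrix arrays after 15 ng of total RNA had been amplified in a double round, per the labels' protocols. The authors deposited log2 values made by RMA, which corrects background, quantile-normalizes and summarises probes; the submitters' processing notes name RMA, affy and Expression Console. Amplification from little RNA favours 3′ ends, and quantile normalization gives all arrays a common distribution, so all changes are relative to the other genes. The table held 45101 probe sets; 64 controls, 932 with several genes and 9160 with none in the platform annotation were left out, leaving 34945.

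Limma 3.58.1 in R 4.3.3 was fitted to these probe sets as 4 group means with 8 residual degrees of freedom, eBayes, two-sided tests and Benjamini-Hochberg adjustment over all of them within each contrast. No low-value filter was used, so all 22 member probe sets were tested. Each gene was read on the brightest of its probe sets, by the mean over all arrays. The fit was tested on simulated data. An exact permutation of 3 against 3 arrays cannot go below p = 0.1, so it was not used. Precision is limited by the array number.

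The members and gene lists were chosen with earlier results of these data known. Named were all members, up to 4 genes with the smallest p in each of 4 pathway lists, the ligands and receptors of those lists, further list genes that passed or that a sentence needed (chosen after their values were seen), and 3 genes nearest in profile to each member whose group means spanned 1 or more. Alternatives covered normalization, the features fitted, a filter at a mean of 5, the Gapdh covariate, a replicate block, weights per array, the prior on the variance, the groups fitted, a threshold of 0.01 and leaving out each array. Some genes of the lists are not reported here.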

Additional observations from a re-analysis of the deposited data

How the results depend on the processing

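Over both sexes the 6 members that passed did so under all 23 alternatives. In XX the count of members passing, 4, was 3 to 5 under all alternatives. In XY the count, 4, was 0 with the Gapdh covariate, 1 at an adjusted p under 0.01 and 1 to 5 when each array was left out, but 6 with array weights or only the groups compared and 5 with 1 probe set per gene or the low-value filter; the cause was not tested. The replicate numbers in the titles did not pair the samples: over 18 same-numbered pairs the correlation of deviations was -0.212 to 0.279, over 0.1 in 5. With the replicate block the XY count was 4, with Dhh in (adjusted p = 0.0207) and Pdgfra out. Counts of members between the sexes and of the difference of effects were 0 throughout. Over all single-gene probe sets the WT sex comparison gave 162 higher and 246 lower in XY with array weights, against 16 and 4 as reported. The genes that did not pass changed sign in places, none passing. With the mean of all probe sets Ptch1 was 0.0011 in XY and -0.0489 in XX, and Hhip was -0.0714 in XX and -0.037 over both. With the Gapdh covariate Gli1 was -0.263 in XY and -0.00472 over both, and Hhip was 0.129 in XY. With array weights Hhip was 0.0256 in XY, and with arrays centred on their medians Ptch1 was 0.0197 over both. Leaving out each array gave, for Gli1, -0.0673 to 0.175 in XY and -0.0172 to 0.326 in XX; for Hhip, -0.184 to 0.155 in XY; and for Ptch1, -0.0785 to 0.0676 over both. Of the pathway lists, the number higher in XY was 0 to 5 for the hedgehog genes (2 as reported), 1 to 3 for the hedgehog targets (3), 1 to 4 for the PDGF genes (4) and 0 to 8 for the interstitial genes (5). Over both sexes it was 4 to 7 (5), 2 to 4 (4), 4 to 5 (5) and 7 to 8 (7) in the same order, and in XX 1 to 4 (4), 2 to 3 (2), 3 to 7 (4) and 4 to 6 (4). Of the single member probe sets that passed, 222 of 222 results over both sexes stayed past the threshold, 165 of 184 in XX and 127 of 162 in XY, and none of these changed direction.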
